A study of Homo sapiens with 8 samples.

Results

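The MAP kinase cascade genes were taken as every gene of the deposited expression tables whose symbol was MAPK, MAP2K, MAP3K or MAP4K followed by a number. This rule found 39 of the 17076 listed genes: 11 MAPK, 7 MAP2K, 17 MAP3K and 4 MAP4K genes. MAPK10, MAPK15, MAP3K19 and MAP4K1 are not among the listed genes and were not analysed here. The values come from mRNA sequencing of 8 libraries of the hepatocellular carcinoma line Huh7, with 2 libraries in each of 4 groups. In the depletion experiment, cells transfected with UPF1 siRNA (siUPF1) were set against cells transfected with a scrambled siRNA (siControl). In the overexpression experiment, cells transfected with a vector that overexpresses UPF1 (MYC-UPF1) were set against cells with the control MYC vector (MYC). The level of UPF1 is therefore the intended difference within each pair of groups, while the kind of nucleic acid transfected differs between the experiments. The methods list siRNAs against the coding sequence and the 3′ UTR of UPF1 and do not say which was sequenced, and neither they nor the labels say whether the 2 libraries of a group came from separate cultures, so the p-values measure only the spread between these libraries, which may be technical.

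MAP kinase cascades are relays of protein kinases: a MAP4K or another upstream signal activates a MAP3K, which phosphorylates a MAP2K, which phosphorylates a MAPK on its activation loop. The best known chains end in the classical ERK kinases (among them MAPK3, ERK1), ERK5 (MAPK7), the JNKs (MAPK8, MAPK9) and the p38 kinases (MAPK11 to MAPK14). In liver cells they carry growth factor, cytokine and stress signals, and dual specificity phosphatases such as DUSP1 switch the MAPKs off. UPF1 is the RNA helicase of nonsense-mediated mRNA decay (NMD), which degrades mRNAs with a premature stop codon and some normal mRNAs. The kinases are regulated mainly by phosphorylation, which mRNA levels do not show.

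The liver identity of the cells was visible in their mRNAs: ALB ranged from 6550 to 8371 FPKM (fragments counted per length of exon and per number of mapped fragments) and HNF4A from 38.5 to 49.0 FPKM over the 8 libraries. Of the markers of other cell types, PTPRC, CD3E and COL1A1 were not among the listed genes, COL3A1 and PECAM1 stayed at or under 0.796 FPKM, and CD68, the most abundant of them, at or under 3.84 FPKM. UPF1 was at 44.5 and 47.4 FPKM in siControl and at 20.7 and 21.9 FPKM in siUPF1. It was at 45.1 and 57.4 FPKM in MYC and at 2835 and 2484 FPKM in MYC-UPF1. The labels therefore matched the level of UPF1 in all 8 libraries.

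MAP3K14 (NF-kB-inducing kinase, the kinase that starts the noncanonical NF-kB pathway) is the member for which the study lists qPCR primers, which show the part of the mRNA that such an assay reads. They are printed in the letter order of the study's list and read here 5′ to 3′, with the last 5 bases, from which the polymerase then extends, in capitals. The list heads the reverse primers as 3′ to 5′, but in the order listed the sequence matched the transcript as a reverse complement downstream of the forward primer.
MAP3K14 forward: ggcccgtgtgtgttggAAGGG
MAP3K14 reverse: ggttcagacattgcaAGGGG
On GRCh37 (the assembly also called hg19) the forward primer matched chr17:43364650-43364670 in exon 4 of 16 and the reverse primer, as its reverse complement, chr17:43364238-43364257 in exon 5, both within the coding sequence of the MAP3K14 transcript on the minus strand. The FPKM value covers the exons of the whole gene and not this stretch alone. An antisense gene, MAP3K14-AS1, overlaps MAP3K14 on the other strand. The library kit kept the strand, but the strand setting of the counting is not given in the sources used here.

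The members spanned a wide range of levels, and FPKM, which is scaled to length, allows them to be compared. The mean over the 8 libraries ran from 0.274 FPKM for MAP3K12 to 69.3 FPKM for MAP2K2, with a median of 5.25 FPKM against 3.98 FPKM for all listed genes. MAP2K2 (MEK2), a kinase that activates the ERK kinases, was the most abundant of all, and MAP4K4 followed at 47.1 FPKM. MAP3K11 (MLK3), a mixed-lineage kinase, led the MAP3K family at 27.2 FPKM. Of the 17 MAP3K genes 2 were above 10 FPKM and 3 were below 1 FPKM, whereas 4 of the 7 MAP2K genes were above 10 FPKM and 0 were below 1 FPKM. Among the p38 genes MAPK12 (20.7 FPKM) and MAPK14 (13.1 FPKM) were well above MAPK11 (0.600 FPKM) and MAPK13 (0.488 FPKM). The summed FPKM of the 39 genes lay between 376.9 in MYC-UPF1 replicate 2 and 424.1 in siUPF1 replicate 2.

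**Figure D1:**
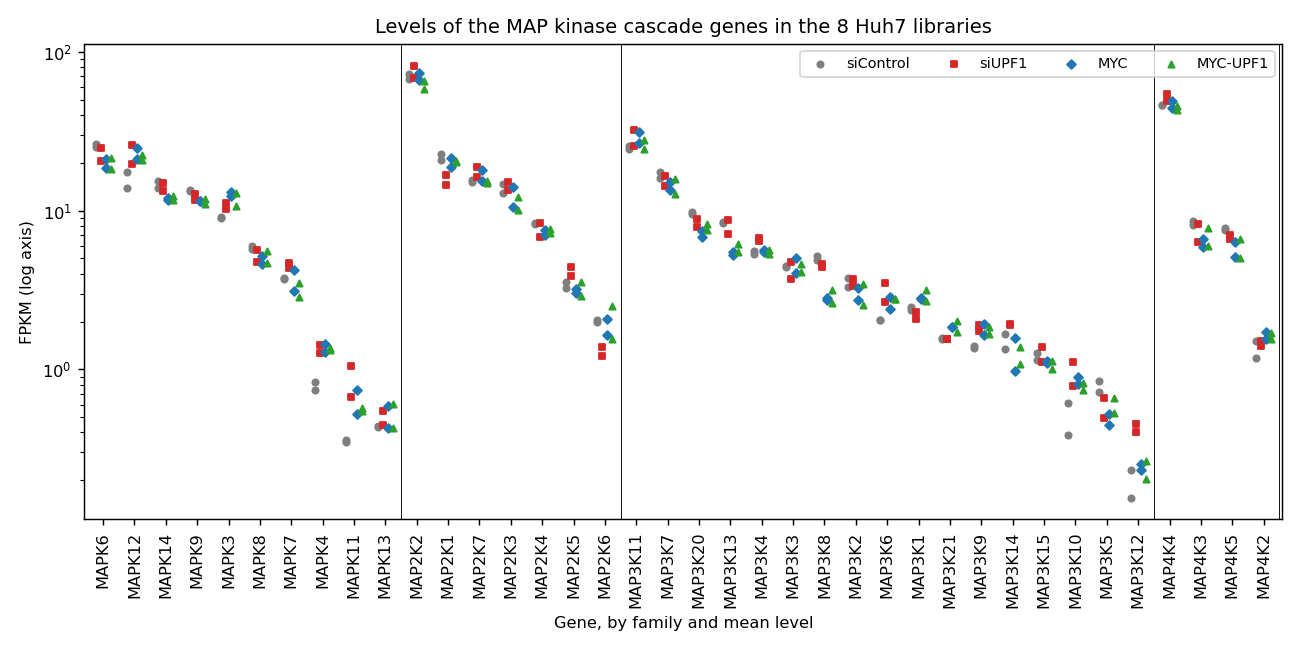
FPKM of 38 MAP kinase cascade genes (horizontal axis, ordered by mean level within the MAPK, MAP2K, MAP3K and MAP4K families, which vertical lines separate) on a log axis, with 1 point per library and a colour and shape per group. Levels run from 0.274 FPKM (mean of MAP3K12) to 69.3 FPKM (MAP2K2), and the groups lie close together beside that range.

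The first comparison asked how the cascade mRNAs differed when UPF1 was depleted. At an unadjusted p of 0.05, 8 of the 37 members tested rose and 2 fell: MAPK4, MAPK7, MAPK11, MAPK12, MAP3K4, MAP3K6, MAP3K9 and MAP3K10 were higher in siUPF1, and MAP2K1 and MAP2K6 were lower. The test was limma, applied to log2(FPKM + 1), a scale that understates the change of low genes, and a gene needed a mean of at least 0.5 FPKM over the 4 libraries. MAP3K12 and MAPK13 were under that minimum. The 8 rises are 21.6% of the members, against 16% of all 13535 genes tested. The 2 falls are 5.41% of the members, against 5.51%. MAPK11 and MAP3K10 reached the FPKM minimum only through the siUPF1 libraries and had to differ. Of the 35 members with a mean of at least 0.5 FPKM in each group, a count added after the values were seen, 6 rose (17.1%, against 15.8% of 13218 such genes) and 2 fell (5.71%, against 5.5%), so that both shares were close to those of all genes. After Benjamini-Hochberg adjustment over all genes tested, 0 of the 37 passed 0.05, where 5 genes in all did (0.0369%). The lowest adjusted p among the members was 0.0988 in limma, for MAP2K1. With 2 libraries against 2, an exact two-sided permutation test of a single gene cannot go below 0.333. The median log2 fold change was -0.0026 for the members and 0.057 for all genes tested. Both siUPF1 libraries lay above both controls for 14 of the 37 members (37.8%, against 37.5% of all genes) and below both for 10 (27%, against 18.5%). How many members rose and how many fell changed with the scaling: 8 and 2 as deposited, 5 and 3 after median centring of the libraries (against 11.8% and 9.39% of all genes), 4 and 4 after quantile normalization (against 10.5% and 10.4% of all genes), and 2 and 5 after a correction that takes out, library by library, the dependence on transcript GC content and length (GC correction; against 11.8% and 12.1%). Both also changed with the libraries used. Without siControl replicate 1, 3 members rose (8.11%, against 7.01% of all genes) and 2 fell (5.41%, against 3.65%), and without siControl replicate 2, 5 rose (13.5%, against 9.93%) and 2 fell (5.41%, against 2.72%). Without siUPF1 replicate 1, 13 members rose (against 27.2%), 8 fell (16.5%) and 14 passed an adjusted p of 0.05 (33.6%), and without siUPF1 replicate 2, 4 rose (16.5%), 3 fell (5.28%) and 2 passed (9.44%), with the lone library of a group assumed to vary like the other group. In bulk RNA, fewer cells with a transcript and less of it per cell cannot be told apart.

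**Figure D2:**
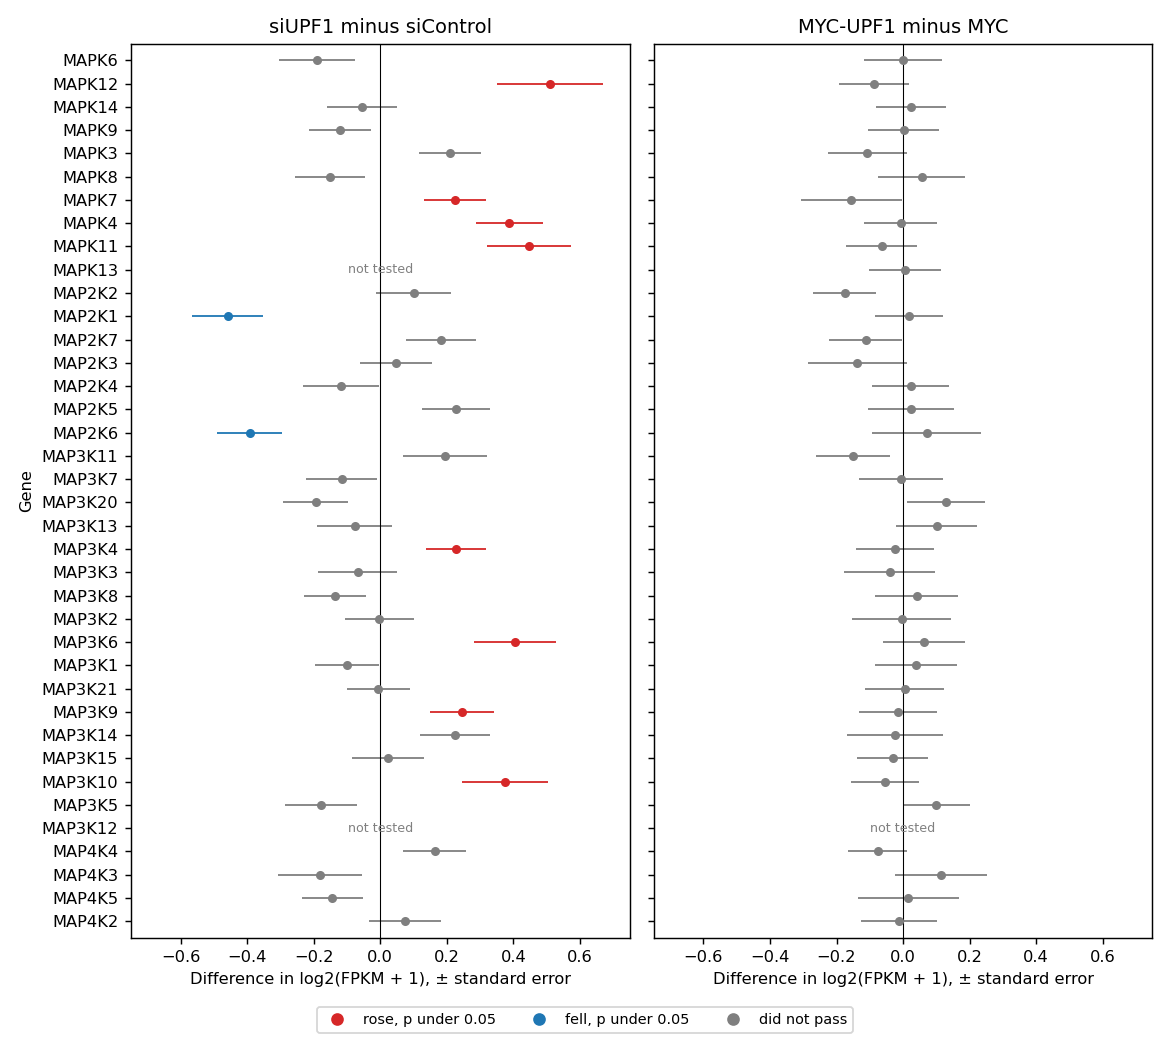
Difference in log2(FPKM + 1) of 38 members (vertical axis, by family and level) for siUPF1 minus siControl (left) and MYC-UPF1 minus MYC (right), 2 libraries per group. Points are limma estimates, for 36 members on the left and 37 on the right, and bars their standard errors, coloured by an unadjusted p of 0.05: 8 members rose and 2 fell on the left, and 0 passed on the right.

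As deposited, both falls were in the MAP2K family, the middle tier of the cascade (28.6% of its 7 genes, against 5.51% of all genes tested). After GC correction 3 of the 7 fell (42.9%, against 12.1% of all genes), and MAP3K3 and MAP3K20 fell too. With quantile normalization MAP3K20 and MAP4K5 fell too. MAP2K1 (MEK1), which with MAP2K2 phosphorylates the ERK kinases, was at 20.7 and 22.6 FPKM in siControl and at 16.6 and 14.4 FPKM in siUPF1. The groups did not overlap, and the siUPF1 libraries were also below all 6 other libraries of the series, since MYC and MYC-UPF1 ranged from 18.8 to 21.4 FPKM. The log2 fold change ± its standard error was -0.46 ± 0.107 (limma adjusted p = 0.0988). MAP2K1 lies on chromosome 15 from 66679175 to 66783994 (GRCh37, plus strand), and an unnamed gene, ENSG00000261351, overlaps it on the other strand. MAP2K1 fell in every alternative run and with each library left out, with log2 fold changes from -0.56 to -0.36 in the latter. After GC correction it was at -0.54 and was the single member with a limma adjusted p under 0.05 (0.0267), where 3.55% of all genes passed.

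MAP2K2, the paralog of MAP2K1, was at 67.7 and 72.1 FPKM in siControl and at 68.7 and 81.9 FPKM in siUPF1, which overlap. Its log2 fold change of 0.10 did not pass (limma adjusted p = 0.617), and its sign depended on the processing: it was at -0.17 after GC correction and at 0.23 without siUPF1 replicate 1, and passed the unadjusted threshold in each. The ratio of MAP2K1 to MAP2K2 within a library, examined after the values were seen, was 0.306 and 0.313 in siControl and 0.242 and 0.176 in siUPF1. In MYC it was 0.283 and 0.289, and in MYC-UPF1 0.312 and 0.346. The siUPF1 ratios were the lowest of the 8.

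MAP2K6 (MKK6), an activator of the p38 kinases, was at 1.99 and 2.04 FPKM in siControl and at 1.38 and 1.21 FPKM in siUPF1. These were again the lowest values of the 8 libraries, and its log2 fold change was -0.39 ± 0.098 (limma adjusted p = 0.112). It held the call with each library left out and after GC correction, where it was at -0.36. The transcript of MAP2K6 is long and poor in GC, with 13405 bases and 38.5% GC. MAP2K3 (MKK3), the other main p38 activator, had a log2 fold change of 0.047 and overlapped between the groups. MAP2K5 and MAP2K7, which activate ERK5 and JNK, were above both controls in both siUPF1 libraries with log2 fold changes of 0.23 and 0.18 and did not pass. MAP2K5 was at 0.12 after GC correction, at 0.15 without siUPF1 replicate 2 and at 0.30 without siUPF1 replicate 1. MAP2K7 was at -0.069 after GC correction, at 0.078 without siUPF1 replicate 2 and at 0.29 without siUPF1 replicate 1. MAP2K4, the other activator of JNK, was at -0.12 and did not pass, but it was at -0.25 without siUPF1 replicate 1, where it passed the unadjusted threshold, and at 0.016 without siUPF1 replicate 2.

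Among the MAPKs, the largest rise on the log2(FPKM + 1) scale was that of MAPK12 (p38γ). On log2(FPKM + 0.1) instead, MAPK11 (1.05) and MAPK4 (0.70) were above MAPK12 (0.53). MAPK12 was at 13.9 and 17.4 FPKM in siControl and at 19.6 and 25.9 FPKM in siUPF1. This gave 0.51 ± 0.159 (log2 fold change ± standard error, limma adjusted p = 0.153). Both siUPF1 libraries were above both controls, and MYC and MYC-UPF1 cells had 20.8 to 24.7 FPKM, within the siUPF1 range. Without siControl replicate 1 it did not pass, and without siUPF1 replicate 2 it was at 0.32. MAPK11 (p38β), which lies next to MAPK12 on the minus strand of chromosome 22 (50702142 to 50709196, against 50683879 to 50700145 for MAPK12), was at 0.346 and 0.360 FPKM in siControl and at 0.665 and 1.05 FPKM in siUPF1. Its log2 fold change was 0.45, given as a description since its siControl mean of 0.353 FPKM lies under the minimum. MAPK4 (ERK4), an atypical MAPK that no MAP2K is known to activate, was at 0.742 and 0.835 FPKM in siControl and at 1.42 and 1.26 FPKM in siUPF1, which amounts to 0.39 ± 0.101 on the log2 scale (adjusted p in limma 0.118). MYC and MYC-UPF1 libraries had 1.28 to 1.43 FPKM of MAPK4, so that the siControl libraries were the low ones. MAPK7 (ERK5) was at 3.70 and 3.75 FPKM in siControl and at 4.35 and 4.70 FPKM in siUPF1, above all 6 other libraries. Its difference of 0.22 on the log2 scale (adjusted p in limma 0.229) passed the unadjusted threshold narrowly and was at 0.0028 after GC correction.

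MAPK14, MAPK8, MAPK9 and MAPK3 did not pass. MAPK14 (p38α) was at 13.9 and 15.4 FPKM in siControl and at 14.9 and 13.2 FPKM in siUPF1, with a log2 fold change of -0.055 and a 95% confidence interval from -0.30 to 0.19. It was at 0.028 without siUPF1 replicate 2 and at 0.010 without siControl replicate 2. MAPK8 (JNK1) was at 5.73 and 5.94 FPKM against 5.61 and 4.73 FPKM, with both siUPF1 libraries below both controls and a log2 fold change of -0.15 (interval from -0.40 to 0.098). Without siUPF1 replicate 1 it was at -0.25 and passed the unadjusted threshold, and without siUPF1 replicate 2 it was at -0.049. MAPK9 (JNK2) was at -0.12, at -0.061 without siUPF1 replicate 2 and at -0.18 without siUPF1 replicate 1. MAPK3 (ERK1) was above both controls in both siUPF1 libraries, with a log2 fold change of 0.21 that did not pass (limma adjusted p = 0.249). It was at -0.0033 after GC correction, and at 0.26 without siUPF1 replicate 2, where it passed the unadjusted threshold. The 95% confidence interval ran from -0.34 to 0.0996 for MAPK9 and from -0.010 to 0.43 for MAPK3. These intervals leave room for modest changes, in either direction for MAPK14, mainly falls for MAPK8 and MAPK9, and mainly rises for MAPK3.

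Of the 16 MAP3Ks tested, 4 rose (25%, against 16% of all genes) and 0 fell (against 5.51%). Without MAP3K10, which had to differ, 3 of 15 rose (20%, against 15.8% of all genes), and after GC correction 1 rose (MAP3K4) and 2 fell (MAP3K3 and MAP3K20). MAP3K6 (ASK2), a stress-activated kinase related to MAP3K5, was at 2.06 and 2.05 FPKM in siControl and at 2.64 and 3.49 FPKM in siUPF1, or 0.41 ± 0.123 on the log2 scale (adjusted p in limma 0.147). It was at 0.25 without siUPF1 replicate 2. MAP3K10 (MLK2) was at 0.387 and 0.611 FPKM against 0.789 and 1.10 FPKM, a log2 fold change of 0.38, given as a description since its siControl mean of 0.499 FPKM lies just under the minimum, and its controls differed from each other by more than the higher of them differed from siUPF1 replicate 1. MAP3K9 (MLK1) was at 1.40 and 1.36 FPKM against 1.75 and 1.90 FPKM, a log2 fold change of 0.24. For these genes, too, the MYC and MYC-UPF1 libraries were all above the siControl libraries. MAP3K4 (MEKK4), which GADD45 proteins activate, was at 5.57 and 5.32 FPKM in siControl and at 6.40 and 6.69 FPKM in siUPF1, above all 6 other libraries, which had at most 5.65 FPKM. Its log2 fold change was 0.23 ± 0.0912 (limma adjusted p = 0.217). MAP3K4, MAP3K9 and MAPK7 lost the call with either siControl library or siUPF1 replicate 2 left out. Their log2 fold changes were then 0.20 to 0.26, 0.205 to 0.26 and 0.18 to 0.23, close to those as deposited. MAP3K10 lost it without siControl replicate 1 (0.27) or siUPF1 replicate 2 (0.26).

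MAP3K14 was at 1.67 and 1.35 FPKM in siControl and at 1.93 and 1.91 FPKM in siUPF1. The siUPF1 libraries were the highest of the 8, and the log2 fold change of 0.22 did not pass (standard error 0.106, limma adjusted p = 0.267). GC correction brought it to 0.011, and leaving out siControl replicate 2 to 0.13. MAP3K14-AS1 on the other strand was at 0.411 and 0.747 FPKM in siControl and at 0.941 and 0.655 FPKM in siUPF1, which overlap. MAP3K11 was at 24.4 and 25.3 FPKM against 25.3 and 32.3 FPKM, with a log2 fold change of 0.20 that was at 0.026 without siUPF1 replicate 2, at 0.36 without siUPF1 replicate 1, where it passed the unadjusted threshold, and at -0.11 after GC correction. MAP3K7 (TAK1), a kinase of cytokine and TGF-beta signalling, was at -0.12 (-0.21 to -0.022 with 1 library left out) and MAP3K5 (ASK1) at -0.18 (-0.25 to -0.10). None of the 4 MAP4K genes passed in limma at an unadjusted p of 0.05. MAP4K4 was at 45.9 and 46.2 FPKM against 49.3 and 54.3 FPKM, with a log2 fold change of 0.16, and MAP4K3 and MAP4K5 were at -0.18 and -0.14. Without siUPF1 replicate 1, MAP4K4 was at 0.23 and MAP4K3 at -0.35, and without siUPF1 replicate 2 they were at 0.095 and -0.014. After GC correction MAP4K4 was at 0.10. With quantile normalization MAP4K5 passed the unadjusted threshold, at -0.20.

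**Figure D3:**
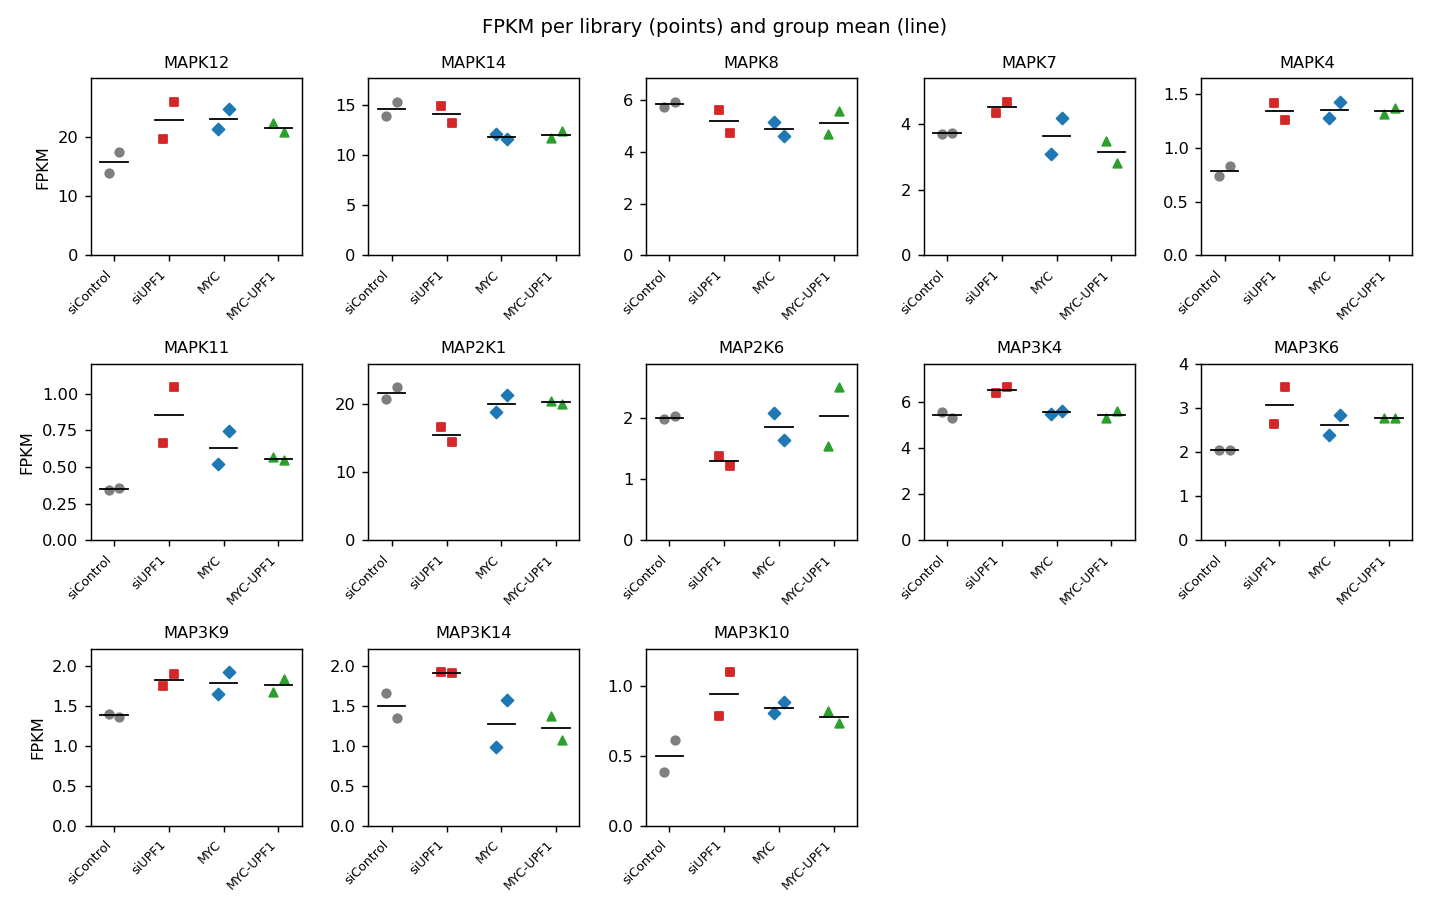
FPKM (linear axis from 0) of the 10 members that passed an unadjusted p of 0.05 after UPF1 depletion and of MAP3K14, MAPK14 and MAPK8, with 1 point per library and a line at each group mean (n = 2). For MAP2K1 and MAP2K6 the siUPF1 libraries are below the 6 others, and for MAPK4, MAPK11, MAPK12, MAP3K6, MAP3K9 and MAP3K10 the siControl libraries are below the 6 others.

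Set against all 8 libraries, the 10 called members therefore fell into different patterns. For MAPK4, MAPK12, MAP3K6 and MAP3K9, as for MAPK11 and MAP3K10, which had to differ, the siControl libraries were the ones that stood apart, below all 6 others. For MAP2K1 and MAP2K6 it was the siUPF1 libraries, below all 6 others, and for MAPK7 and MAP3K4 the siUPF1 libraries, above all 6 others. With a mean of at least 0.5 FPKM in each group, siControl was thus lowest in 4 of the 6 members that rose (66.7%, against 49% of the 2083 genes that rose) and siUPF1 highest in 2 (33.3%, against 48.9%), while siUPF1 was lowest in both members that fell (against 25.4% of 727 genes). The calls themselves rest on the siControl and siUPF1 libraries, so these shares are descriptions. Among the 37 members with a mean of at least 0.5 FPKM over the 8 libraries, siControl was lowest in 7, against 14.3% of all 13412 such genes, and highest in 7, against 12.7%. The siUPF1 libraries were lowest in 3, against 3.39%, and highest in 5, against 17.2%. What sets siControl apart from the plasmid libraries cannot be told apart from other differences between the experiments.

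The changes after depletion ran with the GC content of the transcripts. All 37 tested members have an annotated transcript, whose GC content ranged from 36.9% for MAP3K2 to 69.7% for MAP3K10. Of the 7 members with at least 60% GC and a mean of at least 0.5 FPKM in each group, 7 had a positive log2 fold change (against 92% of 1779 such genes) and 3 rose (42.9%, against 41.2%), with a median of 0.21 (0.24 for all such genes). Of the 14 members under 45% GC, 14 had a negative log2 fold change (against 63.9% of 4816 such genes) and 1, MAP2K6, fell (7.14%, against 9.82%), with a median of -0.13 (-0.057 for all such genes). Over the 35 members with a mean of at least 0.5 FPKM in each group, which share their libraries, the Spearman correlation between GC content and log2 fold change was 0.748, and it was 0.564 over 12275 such genes. MAP2K1, at 51.2% GC, lay far from this relation: its log2 fold change was -0.46, where genes with 50 to 55% GC had a median of 0.10 and a 10th percentile of -0.13. The relation was stronger in siUPF1 replicate 2 (Spearman correlation 0.792 between GC content and the difference from the control mean over these 35 members, and 0.646 over all such genes) than in siUPF1 replicate 1 (0.479 and 0.307). After GC correction, 4 of the 10 called members kept sign and call (40%, against 61.7% of the 2701 called genes with a GC value), or 4 of 8 without MAPK11 and MAP3K10 (50%, against 62% of 2628 such genes). In all, 2 members then rose (MAPK12 and MAP3K4, against 11.8% of all genes) and 5 fell (MAP2K1, MAP2K2, MAP2K6, MAP3K3 and MAP3K20, against 12.1%). MAPK12 was then at 0.26, MAPK4 at 0.22, MAPK11 at 0.20, MAP3K6 at 0.14, MAP3K9 at 0.084 and MAP3K10 at 0.025.

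**Figure D4:**
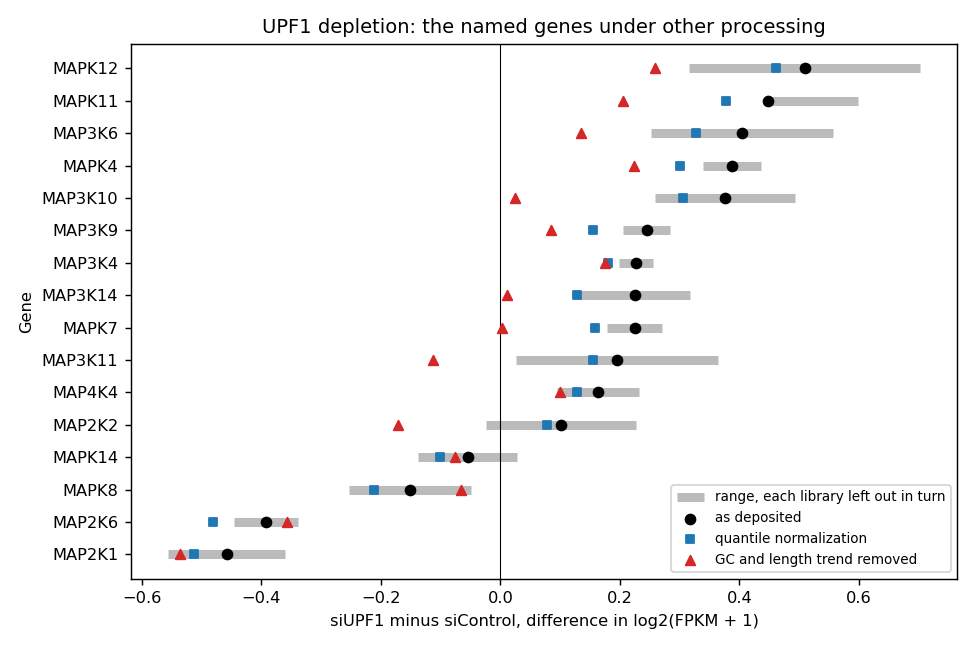
Difference in log2(FPKM + 1) between siUPF1 and siControl for the named members as deposited (circles), with quantile normalization (squares) and after GC correction (triangles), and the range with each library left out in turn (grey bars). MAP2K1 and MAP2K6 are at or below -0.34 throughout, and MAP3K10 and MAPK7 are at 0.025 and 0.0028 after GC correction.

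The annotated transcripts were read for features tied to NMD. The main transcript of each of the 39 genes has 0 exon junctions more than 50 bases after its stop codon, the position that marks a transcript for NMD in the textbook model. This was not counted for other genes, so it cannot be called particular to the members, and it does not cover their other transcripts. Of the 37 members with a mean of at least 0.5 FPKM over the 8 libraries, 21 (56.8%) have at least 1 transcript annotated as an NMD target, against 48.4% of 11454 protein-coding genes at that minimum. Among the members higher in siUPF1, MAPK11 has 2 such transcripts of 4, MAP3K4 3 of 16, MAP3K10 3 of 8 and MAPK7 1 of 18, while MAPK4, MAPK12, MAP3K6 and MAP3K9 have 0. MAP2K1 has 3 of 17 and MAP2K6 1 of 8, and MAP3K14 has 1 of 6. The tables hold 1 value per gene, so that changes between transcripts of a gene were not analysed here.

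The second comparison asked how the cascade mRNAs differed when UPF1 was overexpressed. At an unadjusted p of 0.05, 0 of the 38 members tested rose and 0 fell in limma, against 0.619% and 0.807% of 13251 genes, and 0 passed an adjusted p of 0.05, against 0.00755%. As deposited, the largest log2 fold change in size was -0.18 for MAP2K2, which ranged from -0.27 to -0.086 with 1 library left out. After GC correction MAP2K2 was at -0.099 and the largest was 0.15 for MAP3K6. The median as deposited was -0.0052 for the members and -0.014 for all genes. For the 38 members the 95% confidence intervals reached from 0.20 to 0.37 on either side of the estimate, and in this fit smaller changes did not reach the threshold. Both MYC-UPF1 libraries lay above both MYC libraries for 3 members (MAP3K5, MAP3K13 and MAP3K20, against 8.88% of all genes) and below both for 1 (MAP2K2, against 11.8%).

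MAP2K2 was at 66.3 and 74.0 FPKM in MYC and at 65.9 and 58.1 FPKM in MYC-UPF1, and the lower MYC library differed little from the higher MYC-UPF1 library. Without MYC replicate 1 it passed the unadjusted threshold at -0.25, together with MAP3K11 and MAP2K3, so that 3 of 38 members fell (7.89%, against 4.96% of all genes) and 0 rose (against 0.897%), with the lone MYC library assumed to vary like the MYC-UPF1 libraries. MAP2K1 was at 18.8 and 21.4 FPKM in MYC and at 20.5 and 20.1 FPKM in MYC-UPF1, within the spread of its controls, with a log2 fold change of 0.018 and an interval from -0.21 to 0.25. MAP2K6 was at 2.09 and 1.64 FPKM against 1.55 and 2.52 FPKM. MAPK12 was at 21.2 and 24.7 FPKM against 22.2 and 20.8 FPKM, with a log2 fold change of -0.088. MAP3K14 was at 0.982 and 1.58 FPKM against 1.38 and 1.08 FPKM, a spread between the MYC libraries that exceeded the difference between the groups. MAPK14 was at 12.1 and 11.6 FPKM against 11.7 and 12.4 FPKM (log2 fold change 0.025), and MAPK8, which also overlapped, had a log2 fold change of 0.057 (interval from -0.24 to 0.35). The difference from the control mean ran with GC content at a Spearman correlation of -0.836 in MYC-UPF1 replicate 2 and 0.333 in MYC-UPF1 replicate 1, over the 37 members with a mean of at least 0.5 FPKM in each group. It was 0.826 in MYC replicate 2, which the value in MYC replicate 1 mirrors by construction. After GC correction 0 members rose and 0 fell, against 1.77% and 1.48% of all genes.

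Other genes of the pathway were read from lists of RAS to RAF genes, stress inputs, scaffolds, kinases activated by MAPKs, transcription factor substrates, MAP kinase phosphatases and noncanonical NF-kB genes. Of the 78 genes tested from these lists, 16 rose (20.5%, against 16% of all genes) and 4 fell (5.13%, against 5.51%) after depletion, shares close to those of all genes, and 0 passed an adjusted p of 0.05 in limma. After GC correction 7 rose (8.97%, against 11.8%), 14 fell (17.9%, against 12.1%) and 3 passed an adjusted p of 0.05 (3.85%, against 3.55%). Their median log2 fold change was 0.053, against 0.057 for all genes tested. Upstream of ERK, 0 of the 17 RAS to RAF genes rose (against 16%) and 1 fell (5.88%, against 5.51%), with a median of -0.019. Of these 17, 0 rose (against 11.8%) and 3 fell (17.6%, against 12.1%) after GC correction. Of 16 stress inputs, TRAF2, TAB1 (the partner of MAP3K7) and GADD45B rose (18.8%, against 16%) and 0 fell. GADD45B alone rose after GC correction (6.25%, against 11.8%). Of 11 scaffold genes tested 5 rose (45.5%, against 16% of all genes) and 0 fell, with a median of 0.21. With GC correction 2 rose (ARRB1 and IQGAP1, 18.2%, against 11.8%), and the median of the list was 0.056. MAPK8IP1 (JIP1), which holds the JNK cascade together, was at 0.620 and 0.592 FPKM in siControl and at 1.12 and 1.16 FPKM in siUPF1. IQGAP1, a scaffold of the ERK cascade, was at 15.7 and 16.7 FPKM against 20.7 and 20.9 FPKM, a log2 fold change of 0.34 that was 0.33 after GC correction. ARRB1 (beta-arrestin 1) was also at 0.34, but at 0.18 after GC correction and at 0.23 to 0.46 with 1 library left out.

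Downstream, 3 of 8 kinases activated by MAPKs rose (37.5%, against 16% of all genes) and 0 fell. With GC correction 1 rose (MAPKAPK3, 12.5%, against 11.8%) and 2 fell (MAPKAPK2 and MKNK2, 25%, against 12.1%). MAPKAPK3, a p38 target, went from 4.17 and 4.13 to 5.70 and 5.63 FPKM, and RPS6KA4 and RPS6KA1 had log2 fold changes of 0.36 and 0.28. Of 12 transcription factor substrates, JUN, MEF2C and SRF rose (25%, against 16% of all genes) and ELK4 fell (8.33%, against 5.51%). The log2 fold changes were 0.33 for JUN, 0.28 for MEF2C and -0.37 for ELK4. After GC correction JUN and MEF2C rose (16.7%, against 11.8%) and ELK4 and JUND fell (16.7%, against 12.1%). Among 9 MAP kinase phosphatases DUSP7 and DUSP5 rose, at 0.49 and 0.24, and DUSP1, at -0.39, fell (22.2% and 11.1%, against 16% and 5.51% of all genes). The balance turned after GC correction, where DUSP7 rose (11.1%, against 11.8%) and DUSP1, DUSP6, DUSP8, DUSP9 and DUSP16 fell (55.6%, against 12.1%). Around MAP3K14, CHUK (IKKα, the kinase that MAP3K14 activates) fell by 0.28 on the log2 scale and TRAF2, which is also on the list of stress inputs, rose by 0.42, and the other 4 tested genes of that list did not pass. After GC correction TRAF2 did not pass, and CHUK and TRAF3 fell (33.3% of the list, against 12.1% of all genes). Of the 20 called pathway genes, 11 had the same sign and passed an unadjusted p of 0.05 after GC correction (55%, against 61.7% of all called genes). After overexpression, 3 of the 78 genes rose (3.85%, against 0.619% of all genes) and 0 fell (against 0.807%): DUSP1 by 0.75, GADD45A by 0.47 and GADD45B by 0.45 on the log2 scale. The lists were written with earlier results of these data known, and the study itself picked DUSP1 from this sequencing. The share that rose is therefore a description and not a test of the pathway. GADD45A, which with GADD45B binds MAP3K4, was at 8.59 and 9.37 FPKM in MYC and at 12.8 and 12.8 FPKM in MYC-UPF1, with no overlap.

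Between the experiments, 6 members with a mean of at least 0.5 FPKM had no overlap between the 4 siRNA and the 4 plasmid libraries. MAP3K8 (TPL2), a kinase upstream of ERK, was at 4.39 to 5.20 FPKM with siRNA and at 2.63 to 3.16 FPKM with plasmids, MAP3K13 (LZK) at 7.16 to 8.75 FPKM against 5.24 to 6.13 FPKM, and MAPK14 at 13.2 to 15.4 FPKM against 11.6 to 12.4 FPKM. MAP3K1, MAP3K21 and MAP4K2 were higher with plasmids. All genes gave 21.4% higher with siRNA and 6.96% higher with plasmids, against 3 of the 37 members in each direction. The agents transfected cannot be told apart from other differences between the experiments.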

How the data were processed

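Per the labels, total RNA of 8 Huh7 samples was made into stranded mRNA libraries. The submitters' processing notes name Trimmomatic 0.38, HISAT2 2.1.0 and StringTie 1.3.4d, and the methods name hg19 and NCBI annotation. The authors deposited 1 FPKM value per gene and library. Values in the whole-series and single-sample tables differed in 0 cases, and 0 genes were at 0. FPKM holds no read number, so depth and counting error are unknown. How genes were chosen for the tables is not given in the sources used here.

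For each experiment, limma 3.58.1 in R 4.3.3 fitted log2(FPKM + 1) of the 4 libraries by lmFit and eBayes, the latter with its trend option. Genes under a mean of 0.5 FPKM were left out. The p-values were adjusted by the Benjamini-Hochberg method over all genes tested. The method was also run on simulated data with noise independent between genes, which does not cover the dependence on GC content seen here. Named in full were members that passed an unadjusted p of 0.05 with no overlap between groups (at most the 10 largest), MAP3K14, MAPK14, MAPK8, the most abundant MAP2K, MAP3K and MAP4K and, from each pathway list, at most the 3 largest called changes. Values of 1 member and 1 pathway gene are not reported here. Further names were chosen once values were known. The members, lists and tests were chosen with earlier results of these data known. GENCODE release 44 on GRCh37 gave positions, GC content and length, the latter for 15263 genes. Alternatives were another pseudocount or FPKM minimum, quantile normalization, median centring, 1 fit of all libraries, the replicate block, eBayes without the trend, the GC correction (a loess curve on GC content and length per library, span 0.5) and each library left out. Python 3.11.15 read the files.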

Additional observations from a re-analysis of the deposited data

How the results depend on the processing

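In the depletion comparison, the median of the members minus that of all genes was -0.059 and moved to -0.072 with a pseudocount of 0.1, -0.019 with no FPKM minimum, -0.12 with a mean FPKM of at least 5, -0.073 with quantile normalization, -0.071 after GC correction (with or without the replicate block) and -0.076 to 0.027 with 1 library left out. At a mean FPKM of at least 5, where 20 members were tested, 2 rose (10%, against 16.2% of 7898 genes), 1 fell (5%, against 7.37%), 1 passed an adjusted p of 0.05 (5%, against 4%) and 10 pathway genes rose. With quantile normalization 4 members rose and 4 fell, as did 9 and 9 pathway genes (against 10.5% and 10.4% of all genes). With median centring 5 members rose (against 11.8% of all genes) and 8 pathway genes fell (10.3%, against 9.39%). With all 8 libraries in a single fit 2 pathway genes fell (2.56%, against 6.07%). After GC correction 2 members rose, 5 fell and 1 passed the adjusted threshold (against 11.8%, 12.1% and 3.55% of all genes). Among pathway genes 7 rose and 14 fell. With 1 library left out, 3 to 13 members rose (against 7.01% to 27.2% of all genes), 2 to 8 fell (2.72% to 16.5%) and 0 to 14 passed the adjusted threshold (0.893% to 33.6%), while 3 to 22 pathway genes rose and 0 to 15 fell. After overexpression, 6 pathway genes rose after GC correction (7.69%, against 1.77% of all genes), from lists written with earlier results of these data known. The counts of pathway genes that rose or fell, and of members that fell, also changed with 1 library left out. The cause of these shifts was not tested.

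The labels do not say whether equal replicate numbers mark paired samples. With 2 numbers, the differences between replicates correlated at -0.129 over 13535 genes (depletion) and -0.569 over 13251 genes (overexpression). A negative value means that libraries of unequal number deviated together, and it cannot tell whether samples were paired. Without a block, such shared deviation counts as spread within the groups. With the replicate block 5 members rose (13.5%, against 14.6%) and 2 pathway genes fell (2.56%, against 4.48%) after depletion. With the block and the GC correction 1 member rose (2.7%, against 11.2% of all genes), 5 fell (13.5%, against 11.2%) and 1 passed the adjusted threshold (2.7%, against 1.85%). Among pathway genes 7 rose (8.97%) and 14 fell (17.9%), and 5 rose after overexpression (6.41%, against 1.08% of all genes). A crossed pairing, added after the data were seen, gave 7 rises and 2 falls among the members after depletion (against 16.2% and 6.74% of all genes), and 2 falls among the members (5.26%, against 6.63%) with 6 rises and 3 falls among pathway genes after overexpression.

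After depletion, GC correction turned the sign of 8 members, which had not passed as deposited: with or without the block it put MAP2K2 at -0.17 and MAP3K11 at -0.11, and it put MAP2K3 at -0.14, MAP2K7 at -0.069, MAP3K15 at -0.089, MAP4K2 at -0.084, MAPK3 at -0.0033 and MAP3K2 at 0.064. As deposited, leaving out libraries gave -0.024 to 0.23 for MAP2K2 and -0.14 to 0.028 for MAPK14. After overexpression, MAP3K14 was at 0.048 after GC correction, with or without the block, and at -0.21 to 0.17 with libraries left out. Leaving out libraries gave -0.015 to 0.064 for MAPK14 and -0.048 to 0.16 for MAPK8. FPKM holds no read numbers, so the precision that depth gives to the members under 1 FPKM is unknown.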
